A study of Mus musculus with 21 samples.

Results

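The nuclear-encoded subunits of respiratory complexes II, III, IV and V were read in single mouse myofibers of the slow type 1 and the fast type 2B. Genes were taken by the name given to the array's probes: Sdha, Sdhb, Sdhc and Sdhd for complex II, names beginning with Uqcr for complex III, names beginning with Cox and a digit from 4 to 8 for complex IV, and names beginning with Atp5 for complex V. This gave 48 genes of the 35527 gene names on the array, carried by 71 probes: 4 genes for complex II, 8 for complex III, 19 for complex IV and 17 for complex V. Each array holds the RNA of a single myofiber, amplified and labeled with Cy3. The 11 type 1 arrays come from soleus and the 10 type 2B arrays from extensor digitorum longus (EDL), all of CD1 mice aged 3 months. Muscles were digested with collagenase, and each myofiber was typed by the myosin heavy chain protein in a piece of it. The labels give the mice as male, whereas the study's methods name females. Each type came from 6 mice, and 3 of the 9 mice are in both groups. Because every type 1 myofiber is from soleus, muscle and fiber type cannot be told apart, and neither can fewer transcripts per mitochondrion and fewer mitochondria per myofiber. Myofibers are named by the muscle (S or E), the myofiber number and, after the point, the mouse.

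The respiratory chain passes electrons from NADH and succinate to oxygen and stores the energy as a proton gradient that drives ATP synthesis. Complex II (succinate dehydrogenase) is also an enzyme of the tricarboxylic acid (TCA) cycle, complex III passes electrons from ubiquinol to cytochrome c, complex IV (cytochrome c oxidase) hands them to oxygen, and complex V is the ATP synthase. Slow soleus fibers are known for oxidative metabolism and type 2B fibers for glycolysis. Several complex IV subunits exist as a pair of isoforms, of which one (Cox6a2, Cox7a1, Cox8b) is typical of heart and skeletal muscle and the other (Cox6a1, Cox7a2, Cox8a) is found across tissues. Atp5g1, Atp5g2 and Atp5g3 encode the same mature c subunit of the ATP synthase rotor. The name rule also takes genes that are no constitutive subunit: Cox4nb, whose current symbol is Emc8, Atp5s (Dmac2l), Atp5sl (Dmac2) and Cox7a2l.

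Values are the processed signal of the scanner files, quantile normalized between the 21 arrays and given as log2, and a difference is type 2B minus type 1 on that scale. The arrays were of uneven strength, with 38.7% to 79.8% of spots well above background, and no spot was saturated. Myh7 and Myh4, the type 2B myosin, followed the labels except for Myh7 in the type 1 myofiber S6.4. There Myh7 was at 9.22 and Myh2, the type 2A myosin, at 15.22, while Myh4 (6.0) stayed in the type 1 range. Of its slow markers Tnni1 (8.62) and Tnnc1 (10.64) lay near or in the type 2B range. Tnnt1 (14.82), Myl2 (15.63), Myl3 (16.29) and Atp2a2 (14.29) lay far above it. Of its fast markers Tnni2 (16.38), Tnnt3 (16.31), Tnnc2 (16.4), Atp2a1 (16.46), Mylpf (12.9) and Myh1 (9.48) lay in the type 2B range. Pvalb (7.93) and Myh4 lay far below it. S6.4 keeps its label here. Other myosins were not confined to S6.4. Myh2 had medians of 7.78 in type 1 and 2.25 in type 2B. Myh1, the type 2X myosin, had medians of 1.71 and 9.41 and reached 12.04 in type 2B. Over all type 1 myofibers the median of Myh7 was 15.82, and in type 2B it lay between 6.78 and 7.84. In the authors' own table of normalized values the columns of E12.5 and E13.3, both type 2B, each followed the scanner output of the other (rank correlation 0.997), and exchanging their mice changed no count of members. Markers of other cells differed in places. The summed linear signal of 5 connective tissue markers lay between 281 and 4750 in type 1 and between 212 and 689 in type 2B, and that of 4 satellite cell markers between 1450 and 8350 against 622 to 4590. In the first list 1 of 4 tested genes (Col3a1) and in the second 1 of 4 (Ncam1) passed the test, with lower signal in type 2B. Of all probes tested 4.09% did. For 5 endothelial markers the sums lay between 1540 and 3670 against 1500 to 4180, and for 5 blood markers between 359 and 8630 against 382 to 765, with 0 of 4 tested genes called in each by limma. Every listed marker was well above background in at least 1 myofiber, and the part of these cells in the differences below was not tested.

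The 6 probes that passed the threshold are shown with a stretch of 30 bases each, in lower case because no base within them is singled out. They matter because Cox8a is read by 2 probes at separate places, and because the Cox6a1 and Cox8a letters are those of the isoforms found across tissues. Positions are on mm9, and whether they lie in coding or untranslated sequence is not given in the sources used here.
Cox8a, first probe (chr19:7289722-7289781, minus strand): cacctcttctgcaatcatgacctctcgatg
Cox8a, second probe (chr19:7289652-7289708, minus strand): gtggggtccccctttgtaacaataaagtct
Cox6a1 (chr5:115795726-115795785, minus strand): tttggatgctaagctcgtgtctcctttcct
Uqcrc2 (chr7:127802599-127802658, plus strand): tataacacatgcgtgtatttaaagctcagc
Atp5h, first probe (chr11:115277011-115277070, minus strand): ctgggacggagccccggccgacatgaaata
Sdhc, second probe (chr1:173059348-173059407, minus strand): tttttcatttctaggaaaatacacctttaa

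Of the 48 genes, 46 passed the filter on dim probes. Cox7b2 and Cox8c, which are known from testis, were not well above background in any of the 21 myofibers and were not tested. A gene was called by its brightest probe. Across the 46 genes the signal in type 2B was a little below that in type 1: 43 of 46 fitted differences were below 0, with a median of -0.31 and a range from -1.48 to 0.16. Over all 46977 probes tested the median was 0.03, and 47.6% were below 0. In limma with Benjamini-Hochberg adjustment over all probes tested, 4 of 46 genes fell in type 2B, where 4.09% of all probes tested did. These were Uqcrc2 of complex III, Cox6a1 and Cox8a of complex IV and Atp5h of complex V. No gene rose, where 3.47% of all probes tested did. At an unadjusted p under 0.05 there were 16 genes with lower and 0 with higher signal in type 2B, against 9.08% and 9.39% of all probes tested. The methods' t-test after Benjamini-Hochberg adjustment called 4 genes lower and 0 higher, against 1.81% and 1.43% of all probes, and its 4 were Sdhc, Uqcrc2, Cox8a and Atp5h, with Cox6a1 at an adjusted p of 0.0983. The paper took p-values for that test by permutation, corrected them by Bonferroni, and set spots without the positive and significant flag to missing. Here such spots were kept, so the calls given for it are not those of the authors' own test. None of the 46 passed Bonferroni in limma, where 0.82% of all probes tested were called lower and 0.611% higher. The calls depended on how shared mice and slides were treated. With the mouse as a fixed block, which rests on the 3 mice in both groups, none of the 4 passed (limma adjusted p from 0.174 for Cox8a to 0.381 for Uqcrc2). That fit called 1.51% of all probes lower. With the slide as a fixed block Uqcrc2 (adjusted p = 0.0788 by limma) and Cox6a1 (0.0665) missed the threshold, and on means per mouse Uqcrc2 (0.0874) and Atp5h (0.0578) did.

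The size of the differences is bounded more closely than for most probes of the array. For 36 of the 46 genes the 95% interval of the difference lay between -1 and 1, that is, within a 2-fold change either way, against 40.6% of all probes tested. Among the 2426 probes with a mean log2 signal of at least 12, where most of these subunits lie, the share was 73.6%, the median difference was -0.08, and 3.13% were called lower and 8.74% higher. The median standard error over the 46 genes was 0.20.

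**Figure D1:**
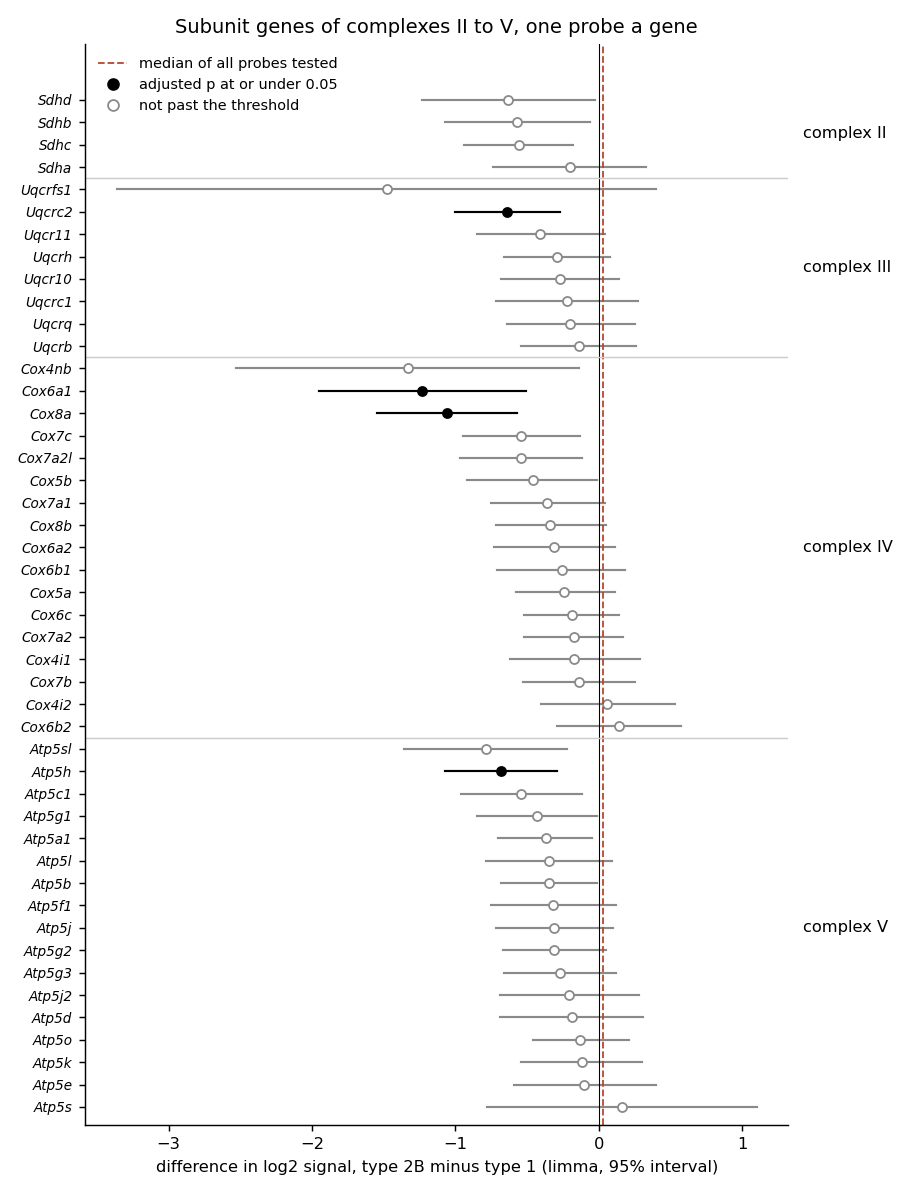
Fitted difference in log2 signal (x axis, type 2B minus type 1, limma with 95% interval) for the brightest probe of the 46 tested genes, grouped by complex. Filled points passed Benjamini-Hochberg at 0.05 over all probes, and the dashed line is the median of all probes tested, 0.03. Of the points, 43 lie left of 0 and 4 are filled, and the wide interval of Uqcrfs1 comes with a single dark spot in fiber E9.6.

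The median over the genes was -0.56 for the 4 genes of complex II, -0.28 for the 8 of complex III, -0.31 for the 17 tested of complex IV and -0.31 for the 17 of complex V. No test of the difference between complexes was made. In single myofibers the median over the genes of complex II lay between 12.33 and 13.13 in type 1 and between 11.45 and 12.87 in type 2B. For complex III the ranges were 13.82 to 14.84 and 13.62 to 14.35, for complex IV 13.27 to 14.14 and 13.03 to 13.82, and for complex V 12.94 to 13.66 and 12.59 to 13.57. The types overlapped in each complex. The Myh2-rich type 1 myofiber S6.4 had the highest median of all 21 myofibers in complexes II, III and V, at 13.13, 14.84 and 13.66. Without it, 3 genes were called lower, where 3.96% of all probes were, and Cox6a1 was at -1.13 (adjusted p = 0.0528 by limma).

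**Figure D2:**
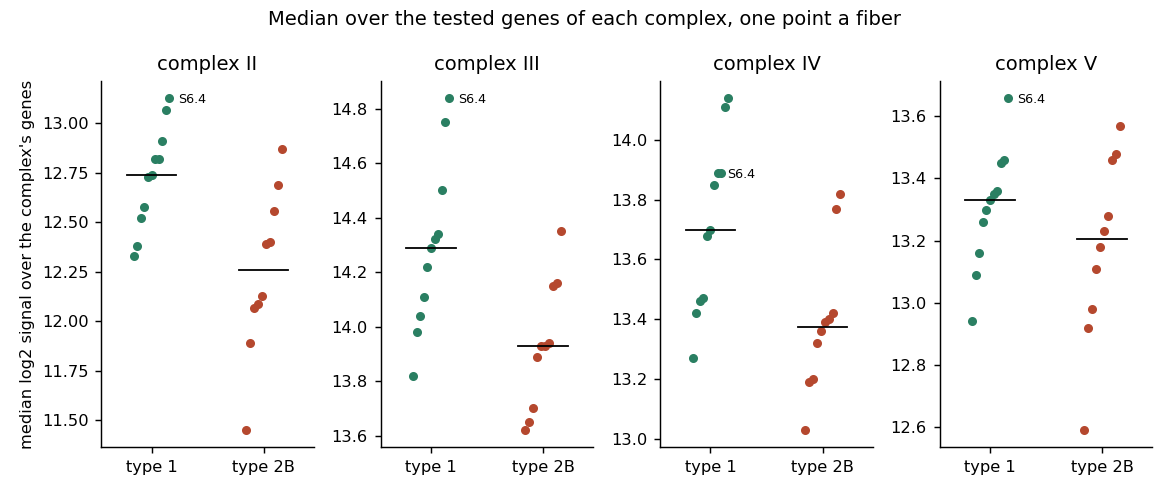
Median log2 signal over the tested genes of each complex (y axis, with a scale of its own in each panel) in every myofiber, ordered by value within a type. Bars are the median over myofibers and S6.4 is named. In every panel the 10 type 2B myofibers overlap the 11 type 1 myofibers, and S6.4 is at the top in complexes II, III and V.

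The size of the shift depended on the scaling of the arrays. With each array scaled to its 75th percentile in place of quantile normalization, 32 of 46 differences were below 0 and the median was -0.07, while the median of all probes moved to 0.11. The genes' median minus that of all probes was then -0.18, against -0.34 with quantile normalization. With no normalization between arrays all 46 differences were below 0 with a median of -0.48, while that of all probes was -0.29.

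Complex II. Sdha carries the flavin and Sdhb the iron-sulfur clusters of succinate dehydrogenase, and Sdhc and Sdhd anchor it in the inner membrane. The signal of Sdhc ranged from 11.95 to 12.77 with a median of 12.33 in type 1, and from 11.34 to 12.31 with a median of 11.91 in type 2B. Of the type 1 myofibers 6 lay above every type 2B myofiber, and 6 type 2B myofibers lay below every type 1. The difference was -0.56 (SE 0.18), which missed the threshold (limma adjusted p = 0.0657). It passed with normexp (0.0161), with the slide as a fixed block (0.0435) and in the methods' t-test (0.0403). A second, dimmer Sdhc probe (chr1:173059348-173059407) passed it at -0.87 (SE 0.24, limma adjusted p = 0.0248). For both Sdhc probes every type 1 mouse mean was above every type 2B one (two-sided p = 0.00216 in an exact permutation test, unadjusted and the smallest that 6 against 6 mice allow).

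Sdhb was at 12.89 to 14.42 with a median of 13.36 in type 1 and at 11.85 to 13.53 with a median of 13.15 in type 2B. Its difference was -0.57 (95% interval -1.07 to -0.06, limma adjusted p = 0.195), and its other probe gave -0.72 (limma adjusted p = 0.0692). Sdhd was at 10.67 to 12.85 in type 1 and 10.23 to 12.87 in type 2B, with a difference of -0.63 (95% interval -1.23 to -0.03, limma adjusted p = 0.243). Sdha overlapped fully, at 12.39 to 13.61 and 11.50 to 13.78, with a difference of -0.20 (95% interval -0.74 to 0.33). All 4 succinate dehydrogenase genes thus had values below 0 in the fit to all fibers, and none of the brightest probes was called. Without slide 1, Sdha was at 0.21.

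Complex III. Uqcrc2, a core protein on the matrix side of complex III read by 10 spots per array, was the only gene of its complex that passed. Its signal ranged from 14.09 to 15.01 with a median of 14.46 in type 1 and from 13.21 to 14.50 with a median of 13.84 in type 2B. In type 2B 8 of 10 myofibers lay below the lowest type 1 myofiber. It fell by 0.64 (SE 0.18, limma adjusted p = 0.0256), a 1.56-fold lower signal. Within the mice that gave both types the difference was -0.56 in mouse 3, -0.57 in mouse 4 and -0.42 in mouse 9, and within the slides that held both types it was -0.60, -0.59 and -0.58. The other core protein, Uqcrc1, was at 12.73 to 15.19 in type 1 and 13.18 to 14.43 in type 2B, with a difference of -0.22 (SE 0.24), and is named here after its values were seen.

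Uqcrfs1, the Rieske iron-sulfur protein, had the largest difference of all members, -1.48, but also the largest standard error, 0.91 (limma adjusted p = 0.424). It is named because of its spread, after its values were seen. In type 1 it was at 11.94 to 13.02. In the type 2B myofiber E9.6 its signal was 1.86 and not above background, while the other 9 type 2B myofibers lay between 11.50 and 12.80. Without E9.6 the difference was -0.47 (SE 0.20, limma adjusted p = 0.215). The 5 small subunits Uqcr10, Uqcr11, Uqcrb, Uqcrh and Uqcrq had differences between -0.41 and -0.14 and did not pass.

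Complex IV, ubiquitous and muscle isoforms. Among the paired isoforms, the genes that fell in type 2B were of the kind found across tissues. Cox8a was at 11.39 to 12.76 with a median of 12.33 in type 1 and at 10.29 to 11.64 with a median of 11.02 in type 2B. Here 7 of 11 type 1 myofibers lay above every type 2B myofiber. It fell by 1.06 (SE 0.24, limma adjusted p = 0.00492), a 2.08-fold lower signal. The second Cox8a probe, of separate sequence, fell by 1.27 (SE 0.25, limma adjusted p = 0.00115), from a median of 12.30 to 10.67. For both probes the mouse means of type 1 were all the higher ones (two-sided p = 0.00216 in an exact permutation test, unadjusted). The first probe differed by -0.39 in mouse 3, -2.28 in mouse 4 and -1.33 in mouse 9, and by -1.01, -0.53 and -1.75 within the slides.

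Cox6a1 was at 8.80 to 11.38 with a median of 10.44 in type 1 and at 8.08 to 9.88 with a median of 8.84 in type 2B. Its type 1 myofibers were spread widely, with 7 of 11 above every type 2B myofiber and the others within their range. It fell by 1.23 (SE 0.35, limma adjusted p = 0.0282), a 2.35-fold lower signal. Within mice the difference was -0.86, -1.05 and -2.92 for mice 3, 4 and 9, and within slides -0.92, -1.29 and -2.41 (exact permutation test of mouse means, two-sided p = 0.00866 before adjustment). Cox7a2, the third ubiquitous isoform, was at 13.29 to 14.31 and 13.32 to 14.11, with a difference of -0.17 (95% interval -0.52 to 0.17), and 0.01 under scaling to the 75th percentile.

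The muscle isoforms did not pass the adjusted threshold in limma. In the exact permutation test of mouse means their two-sided p before adjustment was 0.0649 for Cox6a2, 0.0346 for Cox7a1 and 0.0325 for Cox8b. Cox6a2 had a median of 15.61 in type 1 and 15.17 in type 2B and a difference of -0.31 (95% interval -0.73 to 0.11). Cox7a1 had medians of 15.12 and 14.72 and a difference of -0.36 (95% interval -0.75 to 0.04). Cox8b had medians of 15.21 and 14.69 and a difference of -0.34 (95% interval -0.72 to 0.05). A fall of 2-fold lies outside each of these intervals. Scaling to the 75th percentile put Cox6a2 at 0.03 and Cox8b at 0.00.

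**Figure D3:**
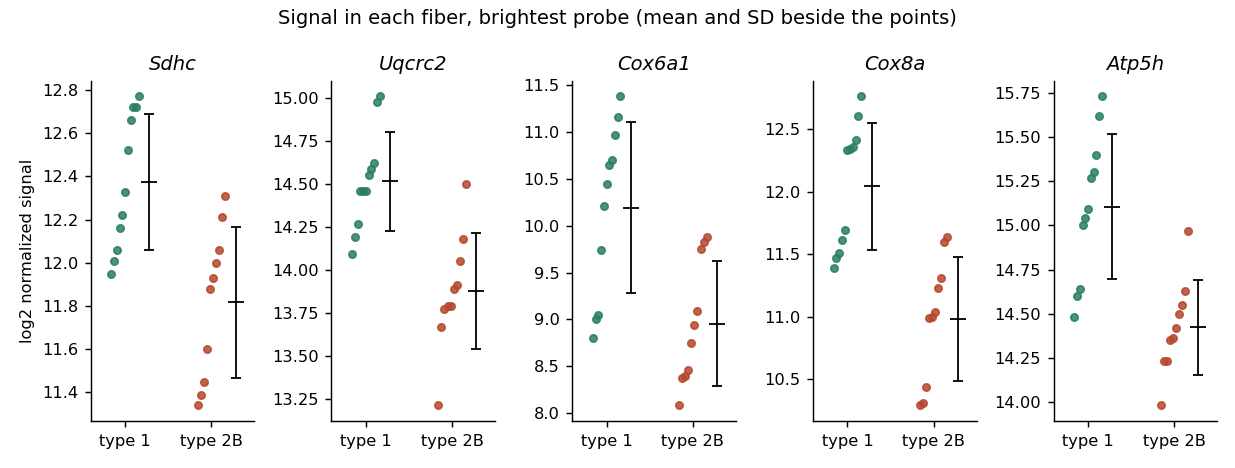
Log2 normalized signal (y axis, with a scale of its own in each panel) of Sdhc and of the 4 genes that passed the threshold, in every myofiber, ordered by value within a type. The mean and SD over myofibers stand beside the points. The types overlap in part in all 5 panels, and type 2B lies lower.

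Whether a pair of isoforms shifted unequally was tested within each array, on the log2 difference between the probes averaged per mouse. Because levels of different probes are not comparable, only the shift of that difference between the types carries information. For Cox8b minus Cox8a the 6 mice with type 1 myofibers gave 3.01 ± 0.18 (SD) and the 6 with type 2B gave 3.91 ± 0.45 (SD), a shift of 0.90 (SE 0.20, exact permutation test, two-sided p = 0.00216, adjusted p = 0.013 over the 6 pairs tested). The mouse means did not overlap, with a highest value of 3.19 in type 1 and a lowest of 3.35 in type 2B. Within mice 3, 4 and 9 the shift was 0.17, 1.92 and 0.98. Within slide 1 alone it was 0.80.

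For Cox6a2 minus Cox6a1 the values were 5.01 ± 0.86 and 6.08 ± 0.54 (SD, n = 6 mice each), a shift of 1.07 (SE 0.41) that missed the threshold after adjustment (exact permutation test, two-sided p = 0.0195, adjusted p = 0.0584). For Cox7a1 minus Cox7a2 the shift was -0.20 (SE 0.10, exact permutation p = 0.0779, adjusted p = 0.156), and it was 0.00 after scaling to the 75th percentile. For the 3 other pairs it was 0.61 (SE 0.34) for Cox4i2 minus Cox4i1, -0.41 (SE 0.26) for Atp5g1 minus Atp5g3 and -0.30 (SE 0.28) for Atp5g2 minus Atp5g3, with adjusted exact permutation p of 0.169, 0.174 and 0.305. The mice of the types are not 12 separate animals, since 3 gave both.

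**Figure D4:**
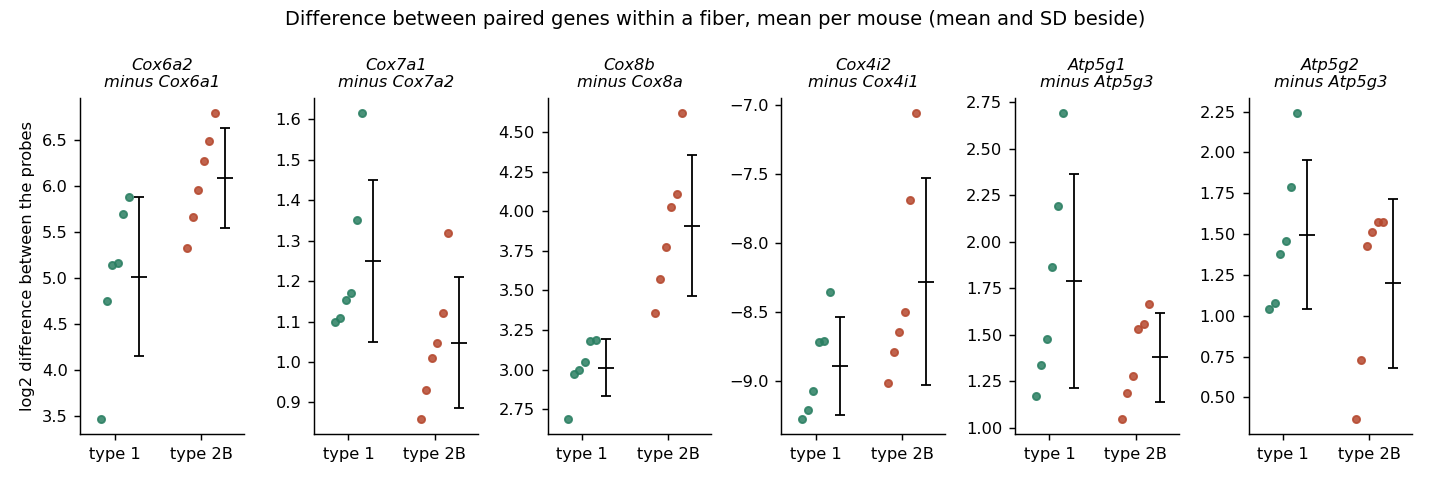
Difference in log2 signal between paired genes within a myofiber, averaged per mouse (y axis, with a scale of its own in each panel), ordered by value within a type, with the mean and SD over 6 mice beside the points. The height on the axis depends on the probes, and the shift between types is what can be read. Cox8b minus Cox8a shifted by 0.90 with no overlap, and the other 5 pairs overlap and miss the threshold.

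No gene of the remaining complex IV families passed the adjusted threshold. Cox4i1, the common isoform of subunit 4, was at 14.56 to 15.79 in type 1 and 14.33 to 15.62 in type 2B, with a difference of -0.17 (95% interval -0.62 to 0.29, and 0.16 under scaling to the 75th percentile). Cox4i2, the isoform known from lung and low oxygen, had medians of 6.48 and 6.68 and a difference of 0.06 (95% interval -0.40 to 0.53). Cox6b1 had a difference of -0.26 and Cox6b2, known from testis, of 0.14. Cox7b was at -0.14. The others, Cox5a, Cox5b, Cox6c, Cox7a2l and Cox7c, lay between -0.54 and -0.19, and the unadjusted 95% intervals of Cox7c (-0.95 to -0.13), Cox7a2l (-0.97 to -0.12) and Cox5b (-0.92 to -0.01) lay below 0. Cox7a2l passed with normexp. Cox4nb, a subunit of the endoplasmic reticulum membrane complex by its current name, had -1.33 with a standard error of 0.58 (limma adjusted p = 0.203), a value chosen for naming after it was seen. It was at 10.97 in the type 1 myofiber S15.2 and between 4.67 and 6.71 in the other 10, and without S15.2 the difference was -0.86 (limma adjusted p = 0.239).

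Complex V. Atp5h, the d subunit of the peripheral stalk that holds the catalytic head still, was the gene that passed. It was at 14.48 to 15.73 with a median of 15.09 in type 1 and at 13.98 to 14.97 with a median of 14.39 in type 2B. Above every type 2B myofiber lay 8 of 11 type 1 myofibers. It fell by 0.68 (SE 0.19, limma adjusted p = 0.0249), a 1.60-fold lower signal. Within mice 3, 4 and 9 the difference was -0.54, -0.93 and -0.41, and within slides -0.54, -0.78 and -1.20. The second Atp5h probe (chr11:115277088-115277147) did not pass, at -0.36 (SE 0.18, limma adjusted p = 0.291), so that the probes of this gene disagree on the call.

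The genes of the rotor ring, Atp5g1, Atp5g2 and Atp5g3, had differences of -0.43, -0.31 and -0.27 (SE 0.20, 0.17 and 0.19), and none passed. Of the catalytic head, Atp5a1 was at -0.37 (95% interval -0.70 to -0.05) and Atp5b at -0.35 (95% interval -0.68 to -0.01), with adjusted p of 0.189 and 0.249 by limma, both named after their values were seen. The 17 genes of the list ranged from -0.79 for Atp5sl to 0.16 for Atp5s, the pair that are no constitutive subunits. Without those 2 genes, Cox7a2l and Cox4nb, the median over the remaining genes of all complexes was -0.31.

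Where a gene had several tested probes, they mostly gave the same sign. Of 16 such genes, 1 (Atp5j2) had probes on both sides of 0, and 2 (Sdhc and Atp5h) had a call for 1 probe and not for another. Several members are represented by near copies in the genome, and RefSeq lists 13 pseudogenes named after them. Probes listed under the same gene can then differ in single letters, and they are shown because a signal of such a probe could come from either copy. Capitals mark the bases that differ, and positions are those given with the probes on mm9. By these positions the stretches of a pair cover the same bases, so they cannot both match the genome there.
Uqcrb, one probe (chr13:67001665-67001724, minus strand): tCgggaaagaaaggagagagaAgagtgggc
Uqcrb, another probe (chr13:67001691-67001750, minus strand): tTgggaaagaaaggagagagaGgagtgggc
Atp5l, one probe (chr9:44721374-44721433, minus strand): ttgaatgttAttggaccatgtgtaaCAGga
Atp5l, another probe (chr9:44721357-44721416, minus strand): ttgaatgttCttggaccatgtgtaaAGAga
Uqcrh, one probe (chr4:115739571-115739630, minus strand): ctcttctgtgtGactagcagtgacttcatc
Uqcrh, another probe (chr4:115739564-115739623, minus strand): ctcttctgtgtAactagcagtgacttcatc
The differences of these pairs were -0.10 and -0.01 for Uqcrb, -0.35 and -0.12 for Atp5l and -0.29 and -0.22 for Uqcrh. None of these probes was called. The authors' table of lncRNA values also holds 6 of the 71 probes, listed under Atp5g2, Atp5l, Atp5o, Cox7c and Uqcrb.

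The promoters of the members were searched for letters bound by factors known for nuclear genes of mitochondria. Of the 48 genes 37 matched a promoter of 300 bases around the gene start in RefSeq (GRCm38.p6). The NRF1 letters GCATGCGC on either strand were in 7 of 37 (18.9%), against 3.05% of the promoters of all 27025 genes, and the ETS letters CCGGAAGT in 4 of 37, against 4.31%. The ERR letters TCAAGGTCA were in 2 of 37 (5.41% against 0.466%) and the YY1 letters AAGATGGCG in 3 of 37 (8.11% against 1.64%). These shares are a description of the sequences. Of the 4 genes that fell, Cox6a1 held the NRF1 letters and Cox8a and Atp5h the ETS letters, and no promoter of Uqcrc2 was matched. A site of each of these genes is shown with the letters in capitals. The ETS letters occurred 2 times in the Cox8a promoter, and a single site is printed.
Cox6a1, NRF1 letters on both strands (chr5:115349102-115349131, minus strand): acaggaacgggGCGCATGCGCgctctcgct
Cox8a, ETS letters (chr19:7217604-7217633, minus strand): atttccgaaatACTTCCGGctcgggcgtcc
Atp5h, ETS letters (chr11:115419940-115419969, minus strand): ccaaggagagaACTTCCGGcaactctcttc
The 7 genes with the NRF1 letters had differences from -1.23 to -0.12, and those with the ETS letters from -1.06 to -0.29.

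Other genes of energy metabolism were read from lists in the same fit. Of 14 tested glycolytic genes 11 rose and 1 fell in type 2B, where 3.47% and 4.09% of all probes did, with a median of 1.22. Pygm (0.16, SE 1.17) and Pgm1 (-0.92) did not pass. Pygm had medians of 13.50 in type 1 and 15.03 in type 2B, where its lowest myofiber was at 1.93. In type 2B it was well above background in 9 of 10 myofibers, and its difference carries that low value. Pgm1 was well above background in 5 of 11 type 1 and 1 of 10 type 2B myofibers. Pgm2, a phosphoglucomutase, rose from a median of 12.97 in type 1 to 14.47 in type 2B, by 1.58 (SE 0.16, limma adjusted p = 1.87e-07). Ldhb, the lactate dehydrogenase subunit typical of oxidative tissue, went the other way, from a median of 14.13 to 3.62, a fitted difference of -10.66 (limma adjusted p = 1.7e-19). In type 2B the probe was well above background in 2 of 10 myofibers, so it entered the test through type 1 and the size is not a measured fold.

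Of 13 TCA cycle genes 2 fell and 0 rose, where 4.09% and 3.47% of all probes did, with a median of -0.24. These were Suclg2, the GTP-forming succinyl-CoA ligase subunit (-1.58, SE 0.48, limma adjusted p = 0.0437), and Ogdh, of the oxoglutarate dehydrogenase complex (-0.68, SE 0.19, limma adjusted p = 0.0255). Of 37 complex I subunits 1 fell and 0 rose, again beside 4.09% and 3.47% of all probes, with a median of -0.11. The gene that fell was Ndufb3 (-0.92, SE 0.19, limma adjusted p = 0.00291). Of 7 tested partners that the name rule leaves out, 0 were called in limma, beside the same shares of all probes, with a median of -0.29. Among these the mitochondrially encoded COX1 was at -0.30 (SE 0.17, named after its value was seen), Cyc1, the cytochrome c1 of complex III, at -0.63 (SE 0.22, limma adjusted p = 0.0904) and Cycs, cytochrome c, at -0.17 (SE 0.19).

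Of 23 assembly factors 2 fell and 1 rose, where 4.09% and 3.47% of all probes did, with a median of -0.04. Sdhaf2, which helps to put the flavin on Sdha, had medians of 5.76 and 4.07 and fell by 1.99 (SE 0.44, limma adjusted p = 0.00402), being well above background in 10 of 11 type 1 and 4 of 10 type 2B myofibers, so that the size of the fall is not a measured fold. Cox19, a copper-handling factor of complex IV assembly, had medians of 11.33 and 9.87 and fell by 1.46 (SE 0.20, limma adjusted p = 1.6e-05). Cox16, named after its value was seen, rose by 0.87 (SE 0.22, limma adjusted p = 0.0153).

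Of 13 regulators of mitochondrial genes 3 fell and 0 rose, where 4.09% and 3.47% of all probes did, with a median of -0.61. The orphan nuclear receptors Esrrg and Esrrb were well above background in every type 1 myofiber and in a minority of type 2B. Their calls rest on type 1 signal against type 2B signal mostly not well above background, and their fitted differences are not measured folds. Esrrg was at 7.77 to 12.37 with a median of 10.84 in type 1 and at 1.70 to 9.23 with a median of 2.39 in type 2B, where 3 of 10 myofibers were well above background (-7.00, SE 0.78, limma adjusted p = 1.04e-06). Esrrb was at 8.89 to 11.33 and at 3.06 to 5.48, with no overlap and 4 of 10 type 2B myofibers well above background (-5.74, SE 0.31, limma adjusted p = 4.26e-12). The coactivator Ppargc1a had medians of 9.17 and 9.51 and a difference of 0.08 (SE 0.49). Ppargc1b, named after its value was seen, fell by 0.79 (SE 0.21, limma adjusted p = 0.0173).

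**Figure D5:**
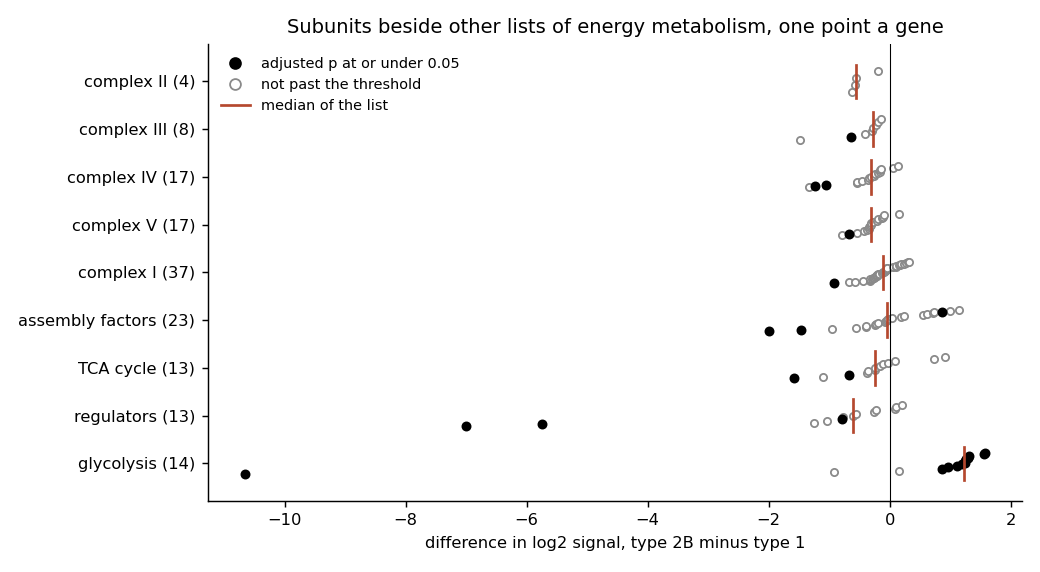
Fitted difference in log2 signal (x axis, type 2B minus type 1) for the brightest probe of every tested gene of complexes II to V, of complex I and of 4 other lists, with the number of genes in brackets. Filled points passed Benjamini-Hochberg at 0.05 over all probes and the upright bar is the median of the list. The genes of complexes II to V crowd between -1.48 and 0.16 and those of complex I between -0.92 and 0.32. Of the 14 glycolytic genes 11 lie right of 0 and passed. Ldhb, Esrrg and Esrrb, mostly not well above background in type 2B, lie far to the left.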

How the data were processed

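Per the submitters' processing notes, the authors extracted the array images with Agilent Feature Extraction 10.7.3.1. The deposited processed intensity is background-subtracted and detrended but not normalized between arrays. They also deposited a quantile normalized intensity table, used here only as a check of the columns. Here outlier-flagged spots were left out, the processed intensity was quantile normalized (limma 3.58.1, R 4.3.3), log2 was taken and spots of a probe were averaged. A probe was tested if 50% or more of the fibers of either type had it flagged as positive and significant (46977 of 55681). The fit had the mouse as a random block (consensus correlation -0.018) and Benjamini-Hochberg at 0.05. The fit was tested on simulated data, with independent noise of the type 1 spread in both types and no mouse or slide effect. The changed probes were drawn from all probes tested, so the rates are not those of the members. Of 50 changes each of log2 1, 2, 3 and 4 it recovered 13, 31, 46 and 50. It called 11 of 46777 unchanged probes. A gene that did not pass may thus still differ. Mouse means were compared by exact permutation. Named are all Sdh genes, the Cox isoform families, Atp5g1 to Atp5g3, up to 3 called genes per complex, and 2 called genes per list with Ppargc1a, Cycs, Cyc1 and Ldhb. Members and lists were chosen with earlier results of these data known. Alternatives changed the scaling, filter, block, slide, test, threshold, probe and fibers. The number of arrays limits the precision. The p-values of limma and of the methods' t-test measure the spread between fibers of 9 mice. Those of the exact permutation test on mouse means measure the spread between the mouse means of each type.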

Additional observations from a re-analysis of the deposited data

Results flagged for a closer look

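Among the 10 type 2B myofibers, the brightest probe of each of the 46 tested genes was examined for a myofiber far from the rest, and 4 were found, where chance gives about 1 in 20 groups. Uqcrfs1 was at 1.86 in E9.6, not above background, against 11.50 to 12.80 in the others. Cox4nb was at 7.67 in E15.3, against 3.92 to 5.76. Cox7b was at 15 in E10.4, against 13.97 to 14.50. Atp5l was at 15.35 in E14.3, against 14.16 to 14.69.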

How the results depend on the processing

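The count of genes that fell in type 2B was 4 and depended on the setting. It was 2 after scaling to the 75th percentile and 7 with normexp, where 3.72% and 3.85% of all probes tested were called lower. It was 0 with no normalization between arrays and with the mouse as a fixed block, where 2.06% and 1.51% of all probes were. On slide 1 only and on the other slides only it was 0, where 1.6% and 2.08% of all probes were. It was also 0 under Bonferroni (0.82% of all probes) and in the methods' t-test with Bonferroni (49 of 46977 probes). With the replicate number as a block it was 1 (Cox8a), where 3.35% of all probes were called lower. But the numbers do not pair the fibers, since over the 10 same-numbered pairs the deviations from the group means correlated between -0.158 and 0.197. Leaving out single mice gave 1 to 5, where 2.96% to 3.98% of all probes were called lower. It was 1 without mouse 3 and 1 without mouse 4 (Cox8a in both) and 2 without mouse 7 (Cox8a and Atp5h). Cox6a1 was also lost without mouse 8, 9 or 10. The median difference, -0.31, moved to -0.07 after scaling to the 75th percentile and lay between -0.46 and -0.27 without single mice. No gene rose under any of the alternatives run. Cox8a stayed called in 21 of 26 alternatives, Atp5h in 16, Uqcrc2 in 13 and Cox6a1 in 11. Leaving out S15.2, chosen after seeing the data, gave the same 4 genes. The brightest Sdhc probe passed in 3 of these 26, and Sdhc was also called with the well-above-background filter and by the mean of its probes. Cox6a2 minus Cox6a1 passed at 1.40 after scaling to the 75th percentile and with no normalization, at 1.06 on the other slides only and at 1.17 without mouse 4, and without single mice it lay between 0.72 and 1.2. Cox7a1 minus Cox7a2 passed at -0.28 on the other slides only and at -0.18 without mouse 4 (range without single mice -0.23 to -0.18), and was 0.00 after scaling to the 75th percentile and with no normalization. Cox8b minus Cox8a was 0.80 on slide 1 only, where the smallest unadjusted p of 0.0286 is too large for a single pair to pass after adjustment over 6 pairs. Of values that did not pass, these changed sign: after scaling to the 75th percentile Cox4i1 (0.16), Cox6a2 (0.03), Cox7a2 (0.01), Cox7b (0.15) and Cox8b (0.00), on the other slides only Sdha (0.21), on slide 1 only Atp5g3 (0.00), and Cox6b2 with no normalization (-0.27) and with unflagged spots missing (-0.03). Cox4i2 changed sign in 6 settings, to -0.37 with no normalization, -0.19 with unflagged spots missing, -0.02 with the mouse as a fixed block, -0.12 on the other slides only, and -0.03 without E9.6 (chosen after seeing the data, and the only fiber of mouse 6, with a range of -0.03 to 0.33 without single mice). The cause was not tested.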
